A study of Mus musculus with 6 samples.

Results

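Vascular endothelial growth factor (VEGF) genes were followed across the cells of the healing fracture callus. The 9 genes were chosen by name, as 4 ligands (Vegfa, Vegfb, Vegfc and Pgf), 3 receptor tyrosine kinases (Kdr, Flt1 and Flt4) and the 2 neuropilins (Nrp1 and Nrp2), out of 52081 gene identifiers that all libraries shared. All 9 were found by symbol in every library, with 3922 UMIs (unique molecular identifiers, 1 per captured transcript) of Vegfc, the fewest, and 143613 of Nrp2, the most. None of them took part in choosing or naming cell groups.

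Callus tissue of mice with a femoral fracture was dissociated 14 days after fracture and sequenced as single-cell 3′ libraries, 3 from control mice and 3 from knockout mice. The sample labels give the controls as wt and the study's methods as Piezo1f/f. The knockout samples are labelled Col2CreERT; Piezo3-/-, whereas the design text of the series and the study's methods name Piezo1 as the deleted gene. The mice were 12 weeks old and, by the methods, male, and tamoxifen (75 mg/kg) was injected daily in both groups for 5 days, starting on day 5. The Cre is driven by Col2, so the deletion was directed at cartilage cells and not at vessel cells. The libraries are named here control 1 to 3 and knockout 1 to 3, and values are listed in that order.

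After filtering, 41652 cells were kept, between 3068 and 10025 per library, from 57626530 to 103784364 UMIs per library. Knockout 3 stood apart from the methods' description, with Xist at 577.8 CPM (UMIs per 1000000 UMIs of the cells summed) and Ddx3y at 0, where the other 5 libraries held Xist at 0.170 or less and Ddx3y between 52.3 and 123. Piezo1, an ion channel opened by force and the targeted gene, was at 70.9, 44.0 and 54.5 CPM in chondrocyte-like cells of the controls and at 138.9, 61.4 and 52.7 in those of the knockouts, so it was not lower in the knockout libraries. A 3′ tag may lie outside the deleted exons, and the level of Piezo1 then checks nothing. Free RNA was present: Col10a1, a cartilage gene, was at 8.67 to 1839 CPM in neutrophil-like cells. Any 2 libraries shared 4 to 36 cell barcodes.

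VEGF ligands are secreted by cells short of oxygen or by growing tissues and bind receptor tyrosine kinases on the vessel wall. VEGF-A, made from Vegfa, drives vessel sprouting mainly through the receptor encoded by Kdr, while the receptor encoded by Flt1 binds VEGF-A, VEGF-B and placental growth factor (from Pgf) and, in part as a decoy, limits their action. VEGF-C acts mainly on the receptor encoded by Flt4, which guides lymphatic and angiogenic growth, and neuropilins are co-receptors shared with the semaphorins. In endochondral repair, hypertrophic cartilage is a textbook source of VEGF-A, and vessels and cartilage-resorbing cells enter where it is made.

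The start regions of the main cartilage ligand and of the 3 receptors are shown because the receptors shared an endothelial pattern in the data and Vegfa did not. Each is the 250 bases before the RefSeq start on build GRCm38.p6, read 5′ to 3′ on the strand of the gene. Capitals mark GGAAG, the core of ETS factor sites, and GATAA, the core of GATA factor sites, on either strand, so that CTTCC is GGAAG on the other strand. Vegfa lies at chr17:46032378-46032627 on the minus strand, Kdr at chr5:75978456-75978705 on the minus strand, Flt1 at chr5:147726012-147726261 on the minus strand and Flt4 at chr11:49609429-49609678 on the plus strand.
Vegfa: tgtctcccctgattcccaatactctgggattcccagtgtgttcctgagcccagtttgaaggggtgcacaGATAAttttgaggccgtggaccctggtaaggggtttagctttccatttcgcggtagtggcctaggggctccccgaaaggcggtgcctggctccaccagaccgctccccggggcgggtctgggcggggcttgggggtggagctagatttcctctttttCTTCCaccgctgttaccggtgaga
Kdr: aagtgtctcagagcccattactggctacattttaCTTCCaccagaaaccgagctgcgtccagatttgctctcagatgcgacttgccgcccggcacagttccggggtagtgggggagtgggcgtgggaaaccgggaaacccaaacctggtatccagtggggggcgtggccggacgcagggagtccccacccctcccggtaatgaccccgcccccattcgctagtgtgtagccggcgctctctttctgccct
Flt1: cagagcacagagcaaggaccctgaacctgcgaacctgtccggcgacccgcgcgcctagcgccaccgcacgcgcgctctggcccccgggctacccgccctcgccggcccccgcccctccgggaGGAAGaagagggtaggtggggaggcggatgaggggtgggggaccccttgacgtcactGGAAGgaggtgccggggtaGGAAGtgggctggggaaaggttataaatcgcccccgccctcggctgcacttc
Flt4: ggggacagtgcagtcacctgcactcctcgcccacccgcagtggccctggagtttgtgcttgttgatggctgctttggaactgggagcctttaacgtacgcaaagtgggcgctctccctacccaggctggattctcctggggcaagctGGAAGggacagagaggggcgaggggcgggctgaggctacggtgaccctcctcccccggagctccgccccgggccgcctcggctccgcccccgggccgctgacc

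GGAAG was found in 64.1% of all 32851 start regions of this length, and it occurred once in Vegfa, Kdr and Flt4, 3 times in Flt1 and 3 times in Nrp1, and 0 times in the other members. GATAA was in 22.6% of all start regions and, among the members, in Vegfa only. ACGTG, a form of the core of the hypoxia response element, was in 16.6% of all start regions and in none of the 9. Other forms of that core, such as GCGTG, were not searched. A match describes letters and not a site in use, and no match says only that the letters are not in this window. On GRCm38 the Vegfa gene (ENSMUSG00000023951) spans chr17:46016993-46032369, Kdr (ENSMUSG00000062960) chr5:75932827-75978458, Flt1 (ENSMUSG00000029648) chr5:147561604-147726011, Flt4 (ENSMUSG00000020357) chr11:49609263-49652739, Nrp1 (ENSMUSG00000025810) chr8:128358604-128503363 and Nrp2 (ENSMUSG00000025969) chr1:62703285-62818695. Counting the 3′ end does not tell splice forms apart, so membrane-bound and soluble forms of Flt1, and the forms of Vegfa, were counted together.

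Cells of named clusters fell into 19 classes, of which the largest were chondrocyte-like (6723 cells), endothelial-like (5941), neutrophil-like (5019) and macrophage-like (4594). The remaining cells lay outside every class, among them a stromal cluster of 1721 cells led by Mir6236 and Col10a1. The term HTC-like stands for a cluster of 604 cells that met the naming rule for hypertrophic chondrocytes, the swollen cartilage cells that precede bone. Clusters of 2376 and 1198 cells were also led by Col10a1 but were named chondrocyte-like. The HTC-like class therefore need not hold all hypertrophic cells. A stromal cluster of 1401 cells met the naming rule with 4 of the 5 listed marrow stromal markers, but of these only Cxcl12 was among its leading genes, with Mmp9, Gdpd2, Lifr, Wif1 and Mmp13, and it is called Mmp9-led stromal here. Levels are CPM of the class in a library, for classes with at least 10 cells in that library. They are compared between classes as a description with no test, by how many libraries place one class above another. Control 2 had 6 HTC-like cells and gives no HTC-like value.

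**Figure D1:**
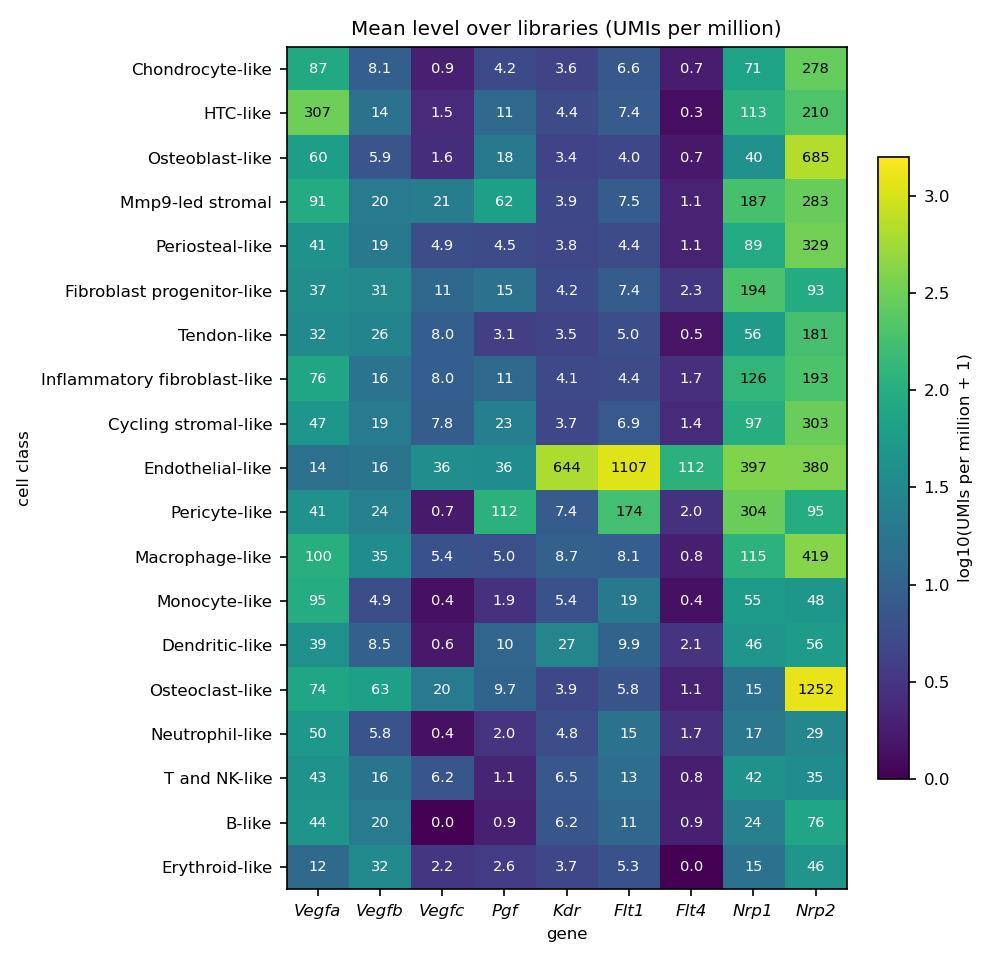
Mean level of the 9 genes (columns) in the 19 cell classes (rows), with the mean over libraries in CPM printed in each cell and colour on a log10 scale. Kdr, Flt1 and Flt4 were highest in endothelial-like cells, Vegfa in HTC-like cells and Nrp2 in osteoclast-like cells.

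Vegfa was highest in HTC-like cells. Its level there was 426.5 and 131.2 CPM in controls 1 and 3 and 481.0, 119.3 and 375.4 in the knockouts, a mean of 306.7 ± 169.8 (SD, n = 5). The 5 libraries fell into a higher set of 3, from 375.4 to 481.0, and a lower pair with values of 119.3 and 131.2. Both sets held libraries of both groups. The lower pair, knockout 2 and control 3, had only 24 and 16 HTC-like cells, against 45 to 419 in the higher set. Col10a1 in these cells was 10140 and 9107 CPM in the lower pair and 24670 to 43230 in the higher set. The part of cell number and cell state in the split was not tested. All 5 placed HTC-like cells above the chondrocyte-like class, which included clusters led by Col10a1, by 3.49-fold on the means. HTC-like cells were above macrophage-like cells in 4 of 5. In chondrocyte-like cells Vegfa was 125.1, 81.3 and 65.0 in the controls and 120.2, 71.4 and 57.4 in the knockouts (86.7 ± 28.9, SD, n = 6). Within the chondrocyte-like class its mean ranged from 75.4 in the cluster led by Ucma and Matn3, genes of immature cartilage, to 245.8 in a cluster led by Col10a1, the collagen of hypertrophic cartilage, whose cells had a median of 1896.5 UMIs. That cluster had 1198 cells, and the larger cluster led by Col10a1, with 2376 cells, had 133.5. An unnamed stromal cluster led by Chil1, Mmp3, Lcn2 and Hp held Vegfa at 162.1.

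Macrophage-like and monocyte-like cells carried Vegfa at levels that differed widely between libraries. In macrophage-like cells it was 46.0, 129.3 and 136.5 in the controls and 241.7, 6.31 and 42.2 in the knockouts (100.3 ± 86.4, SD, n = 6). In monocyte-like cells it was 97.5, 100.7 and 39.6 in the controls and 212.7, 24.0 and 98.1 in the knockouts (95.4 ± 66.4). Knockout 1 was the highest and knockout 2 the lowest library in both. Mmp9-led stromal cells followed at 90.9 ± 35.4, inflammatory fibroblast-like cells at 76.1 ± 35.0, osteoclast-like cells at 74.0 ± 54.8 and osteoblast-like cells at 59.8 ± 19.7. From the second to the seventh place in this order, neighbours were ordered the same way in only 2 to 4 of 6 libraries, so these classes were not told apart. Endothelial-like cells, with 14.3 ± 6.53, held less Vegfa than chondrocyte-like, macrophage-like and monocyte-like cells in 6 of 6 libraries each.

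Vegfa differed between libraries in many classes at once. Among the 14 classes measured in all 6 libraries with at least 60 Vegfa UMIs, knockout 2 was the lowest library in 11 and knockout 1 the highest in 7. These classes share their libraries and free RNA, so the counts are not independent. The summed level of 16 regulators and targets of the hypoxia response moved alongside in macrophage-like cells, where it was 1206, 1436 and 1513 in the controls and 2203, 1073 and 1308 in the knockouts. In monocyte-like cells that sum was 1271, 1247 and 989.7 in the controls and 2168, 887.6 and 1124 in the knockouts. Knockout 1 was again the highest and knockout 2 the lowest in both. The sum had these extremes outside the myeloid classes too. In knockouts 1 and 2 it was 2254 and 1577 in endothelial-like, 2354 and 1556 in pericyte-like and 2152 and 1364 in inflammatory fibroblast-like cells. In all cells summed it was 2125 and 1174. The pattern was therefore not particular to macrophage-like and monocyte-like cells, though not every class had it. In osteoclast-like cells Vegfa had the same extremes, with 41.5, 110.6 and 63.4 in the controls and 165.4, 14.9 and 48.4 in the knockouts, but the sum did not follow it, at 1402, 1409 and 1243 in the controls and 1485, 1320 and 1544 in the knockouts. Nor did the sum follow Vegfa in Mmp9-led stromal cells, where it was 1080, 1176 and 1169 in the controls and 1096, 1122 and 1281 in the knockouts. The part of this list in the Vegfa levels was not tested. A UMI of Vegfa was found in 94.4% of HTC-like cells, with a median of 19990 UMIs, and in 14.3% of neutrophil-like cells, with a median of 2485. After each cell was thinned to 500 UMIs these shares were 19.7% and 2.69%, so the HTC-like share stayed above that of the neutrophil-like cells. Both shares pool the cells of all libraries, and 419 of the 604 HTC-like cells came from knockout 3. By library the thinned HTC-like share ran from 6.25% in control 3, with 16 cells, to 26.7% in knockout 1.

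Vegfb, whose product binds the Flt1 receptor and is known mostly from heart and fat, was highest in osteoclast-like cells, the bone-resorbing cells. Its level was 73.4, 56.3 and 52.4 CPM in the controls and 53.3, 75.4 and 65.3 in the knockouts (62.7 ± 10.2, SD, n = 6). All 6 libraries placed osteoclast-like cells above macrophage-like cells (34.6 ± 13.5) and above monocyte-like cells, by 12.7-fold on the means for the latter. Macrophage-like cells were in turn above monocyte-like cells (4.93 ± 4.35) in 6 of 6 libraries. In the other classes the mean lay between 5.84 and 32.0. A UMI of Vegfb was found in 51.2% of osteoclast-like cells and in 2.11% of neutrophil-like cells, or in 3.03% and 0.199% after thinning.

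Vegfc was highest in endothelial-like cells, at 33.5, 27.6 and 40.5 in the controls and 39.3, 45.6 and 31.9 in the knockouts (36.4 ± 6.58, SD, n = 6). Mmp9-led stromal cells (21.1 ± 18.4) and osteoclast-like cells (20.4 ± 10.98) were below it in 5 of 6 libraries each. Pericyte-like cells, which share the vessel wall, had 0.708 ± 0.536 from 9 UMIs in all. Within the endothelium Vegfc was concentrated in the arterial-like cluster, with 123.5, 89.9 and 166.6 in the controls and 141.9, 280.6 and 96.9 in the knockouts. This mean of 149.9 was 6.22-fold that of the large cluster led by Abcc9 and Apln and 4.47-fold that of the venous-like cluster, with the arterial-like cluster above both in 6 of 6 libraries. Lymphatic-like cells held 1 UMI of Vegfc.

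Pgf, which encodes placental growth factor, was highest in pericyte-like cells. There, in the contractile cells around small vessels, it was 63.9, 74.9 and 111.3 in the controls and 77.6, 162.2 and 181.4 in the knockouts (111.9 ± 49.4, SD, n = 6). All 6 libraries placed them above Mmp9-led stromal cells (62.1 ± 31.3) and above endothelial-like cells (35.5 ± 12.98). Endothelial Pgf was uneven: it was 159.0, 136.9 and 228.9 in lymphatic-like cells of controls 2 and 3 and knockout 3, the 3 libraries with at least 10 such cells, and on average 50.4 in the Apln-led, 30.5 in the arterial-like and 4.82 in the venous-like cluster. The pericyte marker list of 9 genes summed to 491.0 to 1276 in the Apln-led cluster and to 15210 to 21400 in pericyte-like cells. In lymphatic-like cells Pgf was above the Apln-led, arterial-like and venous-like clusters in 3 of 3 libraries. Vegfd, the remaining ligand of Flt4, was measured beside the members and was highest in fibroblast progenitor-like cells, at 38.9 ± 21.9, with a mean of 9.66 or less in every other class.

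**Figure D2:**
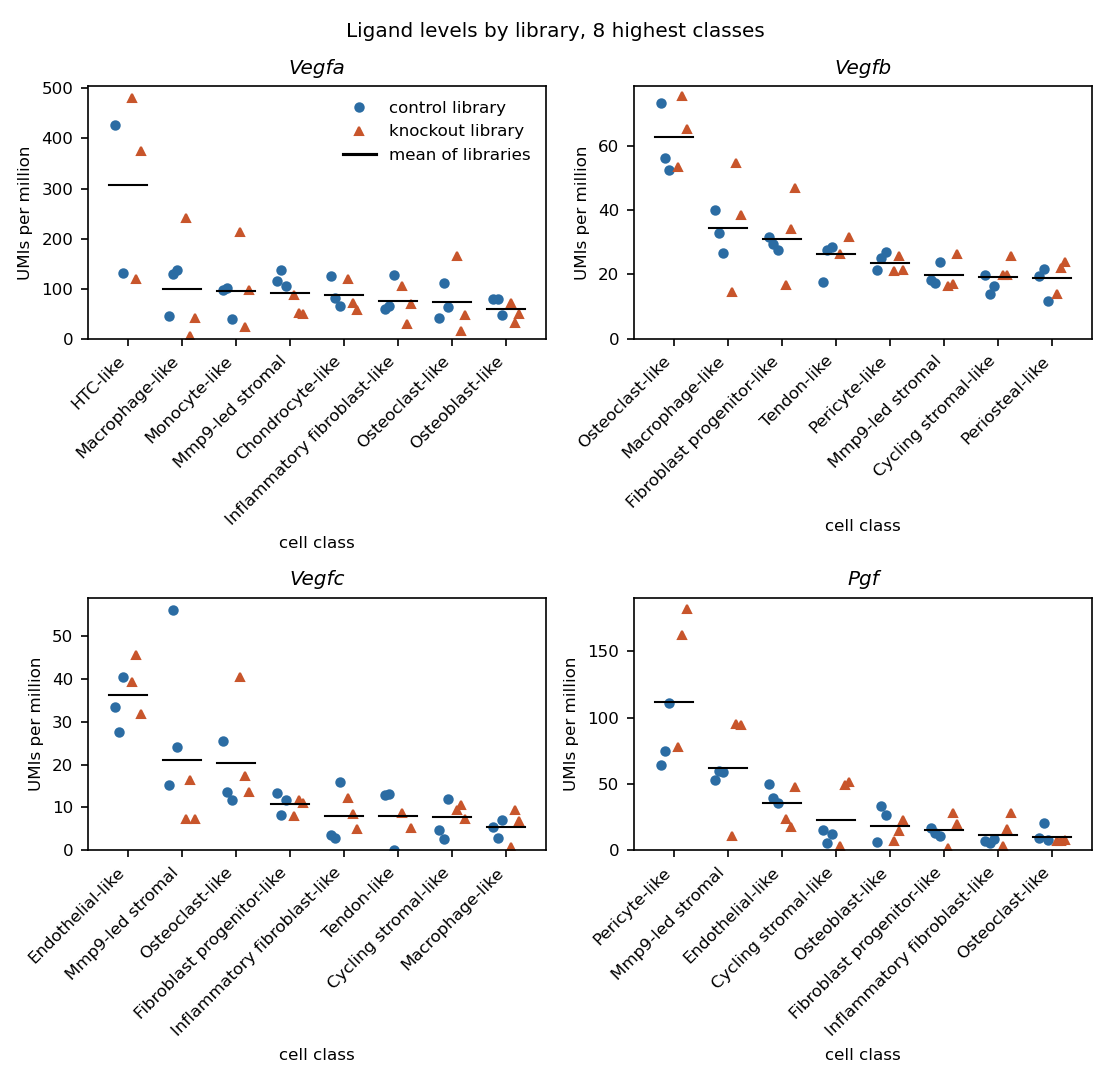
Level of each ligand in CPM (vertical axis) by library in the 8 classes with the highest means among those with at least 60 UMIs of the gene, with circles for the 3 controls, triangles for the 3 knockouts and bars for the mean. The Vegfa panel shows the spread of HTC-like cells, from 119.3 to 481.0, and the Pgf panel the pericyte-like cells, from 63.9 to 181.4.

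Level and cell number together set which cells held the UMIs of a ligand. Chondrocyte-like and HTC-like cells together held 36.2 ± 28.6% of the Vegfa UMIs of a library (SD, n = 6), with 70.9, 24.6 and 6.15% in the controls and 43.1, 6.44 and 66.2% in the knockouts. These chondrocyte-like and HTC-like shares did not separate the groups. Cells outside every class held 4.18, 3.32 and 16.6% of the Vegfa UMIs in the controls and 7.29, 6.87 and 5.72% in the knockouts. In knockout 2 the largest share, 32.3%, lay in osteoblast-like cells, which held 1.17 to 5.17% in the other libraries. Endothelial-like cells held 43.7 ± 15.8% of the Vegfc UMIs but 2.18 ± 1.43% of those of Vegfa. Pgf was divided among other stromal classes (28.8 ± 13.6%), endothelial-like cells (26.3 ± 15.7%) and pericyte-like cells (19.3 ± 9.41%), and osteoclast-like cells held 16.7 ± 10.99% of the Vegfb UMIs.

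**Figure D3:**
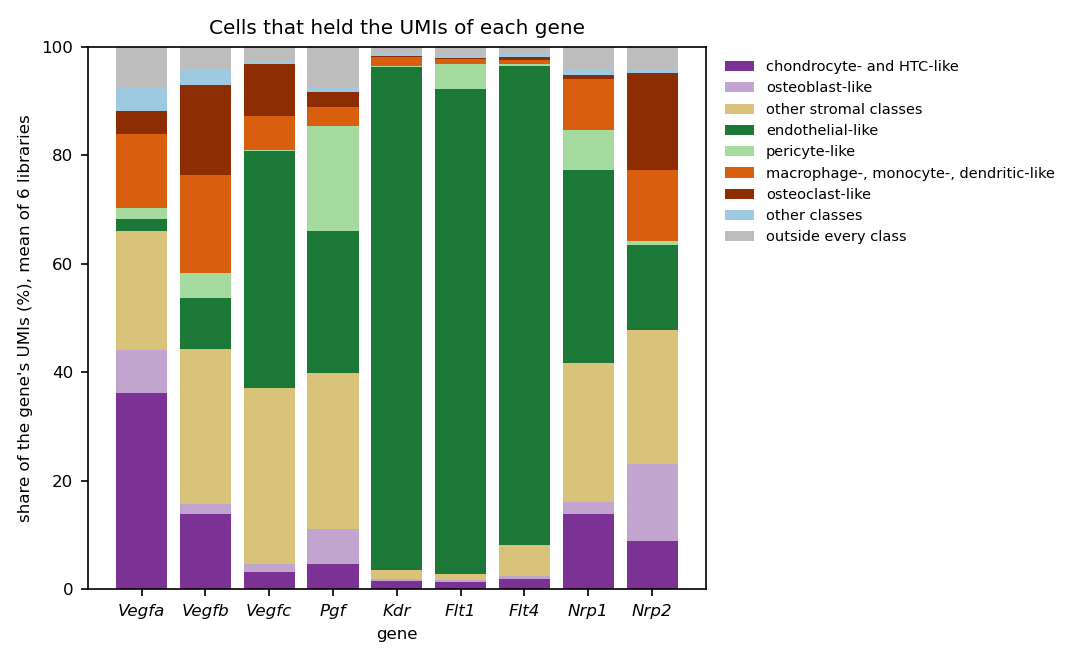
Share of the UMIs of each gene (vertical axis, percent, mean of 6 libraries) that lay in each group of cell classes. Endothelial-like cells held 92.9% of Kdr and 89.6% of Flt1, while the UMIs of Vegfa, Vegfb and Pgf were spread over many classes.

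The 3 receptors were highest in endothelial-like cells in all 6 libraries. Kdr, which encodes the main signalling receptor for VEGF-A, was 647.5, 515.5 and 670.9 CPM in endothelial-like cells of the controls and 647.7, 877.7 and 501.7 in those of the knockouts (643.5 ± 135.7, SD, n = 6). The next class, dendritic-like cells, reached 27.3 ± 30.4 through control 1 (81.4), with 9.02 to 17.2 in the other 4 libraries. Every other class had a mean of 8.68 or less, near the 4.85 ± 3.60 of neutrophil-like cells, which should lack the gene. A Kdr UMI was found in 83.2% of endothelial-like cells and in 2.09% of neutrophil-like cells.

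Flt1 was 1116, 1072 and 1142 in endothelial-like cells of the controls and 1334, 1080 and 896.7 in those of the knockouts (1107 ± 140.8). It was also present in pericyte-like cells, at 128.8, 174.6 and 157.7 in the controls and 444.6, 27.8 and 110.9 in the knockouts. Between libraries those values differed by a larger factor than the endothelial ones, with both extremes in knockout libraries. In 5 of 6 libraries they were above monocyte-like cells, the next class at 18.6 ± 13.1. In pericyte-like cells 37.8% had a Flt1 UMI, or 7.44% after thinning, against 4.12% and 0.478% of neutrophil-like cells. The endothelial marker list of 10 genes summed to 232.6 to 632.0 in pericyte-like cells and to 8237 to 9235 in endothelial-like cells, and 0 of its markers were absent from the pericyte-like cells. In the same cells the mean of Kdr was 7.42, with the endothelial mean 86.8-fold higher, while the endothelial mean of Flt1 was 6.36-fold higher than that of the pericyte-like cells.

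Flt4 was 103.8, 65.9 and 163.9 in endothelial-like cells of the controls and 86.2, 164.9 and 89.4 in those of the knockouts (112.3 ± 42.1). Every other class had a mean of 2.31 or less, and neutrophil-like cells had 1.70. Endothelial-like cells held 92.9 ± 2.37% of all Kdr UMIs, 89.6 ± 3.93% of those of Flt1 and 88.3 ± 9.60% of those of Flt4. The lowest of the Flt4 shares was 69.2% in knockout 1, a library with 142 endothelial-like cells. There 17.5% of the Flt4 UMIs lay in inflammatory fibroblast-like cells, which held 0 to 1.63% in the other libraries, and 15.2% of these cells had a Flt4 UMI against 0 to 4.88% elsewhere. The level in these cells was 5.95 CPM in knockout 1 and 0 to 1.29 in the other libraries, from 67 UMIs in all.

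The endothelial clusters differed in their receptors. Of 6 clusters, 4 are described by name. A further cluster of 505 cells, led by Mir6236, Ibsp and Col10a1, held Kdr at 272.9 ± 154.6 and Flt1 at 458.6 ± 254.3. Another of 432 cells, led by Hist1h2ap, Ube2c and Cenpf, held them at 623.0 ± 163.4 and 986.8 ± 197.5. Lymphatic-like cells (163), led by Ccl21a, Mmrn1, Prox1 and Lyve1, held Flt4 at 706.0, 656.0 and 686.8, above the Apln-led cluster (124.6 ± 43.6), the arterial-like cluster (66.7 ± 12.9) and the venous-like cluster (19.4 ± 13.2) in 3 of 3 libraries. Prox1, the transcription factor that sets lymphatic identity, was 731.5, 907.6 and 1223 in the lymphatic-like cells. It was 11.3 or less in the Apln-led, arterial-like and venous-like clusters. Flt1 showed the reverse, with 6.63 in lymphatic-like cells from 7 UMIs and means of 944.2 to 1225 in the Apln-led, arterial-like and venous-like clusters. Kdr was 738.0 ± 149.9 in the Apln-led, 580.6 ± 168.6 in the arterial-like, 366.8 ± 76.7 in the venous-like and 352.4 ± 48.0 (n = 3) in the lymphatic-like cluster. Cell by cell, 78.3% of endothelial-like cells of all 6 clusters had UMIs of both Kdr and Flt1, 4.85% of Kdr alone, 10.1% of Flt1 alone and 6.78% of neither. In the Apln-led cluster 0.889% had neither. Among lymphatic-like cells 66.9% had Kdr alone and 3.07% had both.

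Nrp1 and Nrp2 reached beyond the endothelium. Nrp1, a co-receptor for VEGF-A and class 3 semaphorins, was 423.4, 306.7 and 313.4 in endothelial-like cells of the controls and 377.8, 648.1 and 310.0 in those of the knockouts (396.6 ± 131.8). Pericyte-like cells came next at 257.0, 251.4 and 256.5 in the controls and 313.3, 461.1 and 281.3 in the knockouts, below the endothelial level in 6 of 6 libraries. Fibroblast progenitor-like cells (194.0 ± 38.5) and Mmp9-led stromal cells (186.7 ± 52.0) followed and were not told apart, with the former above the latter in 4 of 6 libraries. Macrophage-like cells had 114.9 ± 45.8, 7.72-fold the 14.9 ± 5.22 of osteoclast-like cells, the lowest of all classes.

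Nrp2, the neuropilin that also binds VEGF-C, had the opposite pattern in bone cells. It was 1537, 1223 and 1222 in osteoclast-like cells of the controls and 1698, 1109 and 724.4 in those of the knockouts (1252 ± 340.9, SD, n = 6). Osteoblast-like cells, the bone-forming cells, came second at 820.9, 692.9 and 533.1 in the controls and 651.7, 991.0 and 418.3 in the knockouts. All 6 libraries placed osteoclast-like above osteoblast-like cells, and osteoblast-like cells above macrophage-like (418.7 ± 91.4) and endothelial-like cells (380.0 ± 79.0). Along the myeloid classes the mean was 48.2 ± 23.2 in monocyte-like cells, 8.69-fold higher in macrophage-like and 26.0-fold higher in osteoclast-like cells. A cycling cluster of macrophage-like cells had 711.9 and the largest macrophage-like cluster 289.8. A Nrp2 UMI was found in 93.2% of osteoclast-like and 92.3% of osteoblast-like cells, against 8.61% of neutrophil-like cells, or in 40.5%, 32.6% and 1.57% after thinning. In chondrocyte-like cells 5 libraries had 78.8 to 135.0 and knockout 2 had 1161 (median 105.9). In that library the osteoclast marker list summed to 849.6 in chondrocyte-like cells, against 137.5 to 293.9 in the others, and the osteoblast marker list to 32030, against 3249 to 20540. The part of osteoclast and osteoblast RNA in the value was not tested.

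The neuropilins also divided the endothelium. Nrp2 was 912.8, 799.3 and 744.1 in lymphatic-like cells, 538.6 ± 91.2 in the venous-like, 402.2 ± 95.7 in the Apln-led and 65.3 ± 22.4 in the arterial-like cluster. Nrp1 ran the other way, with 459.7 ± 132.7 in the Apln-led, 447.3 ± 174.7 in the arterial-like and 225.9 ± 98.8 in the venous-like cluster and 7.69 in lymphatic-like cells from 6 UMIs. UMIs of both neuropilins were found in 75.1% of Apln-led, 60.04% of venous-like, 29.3% of arterial-like and 3.07% of lymphatic-like cells.

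**Figure D4:**
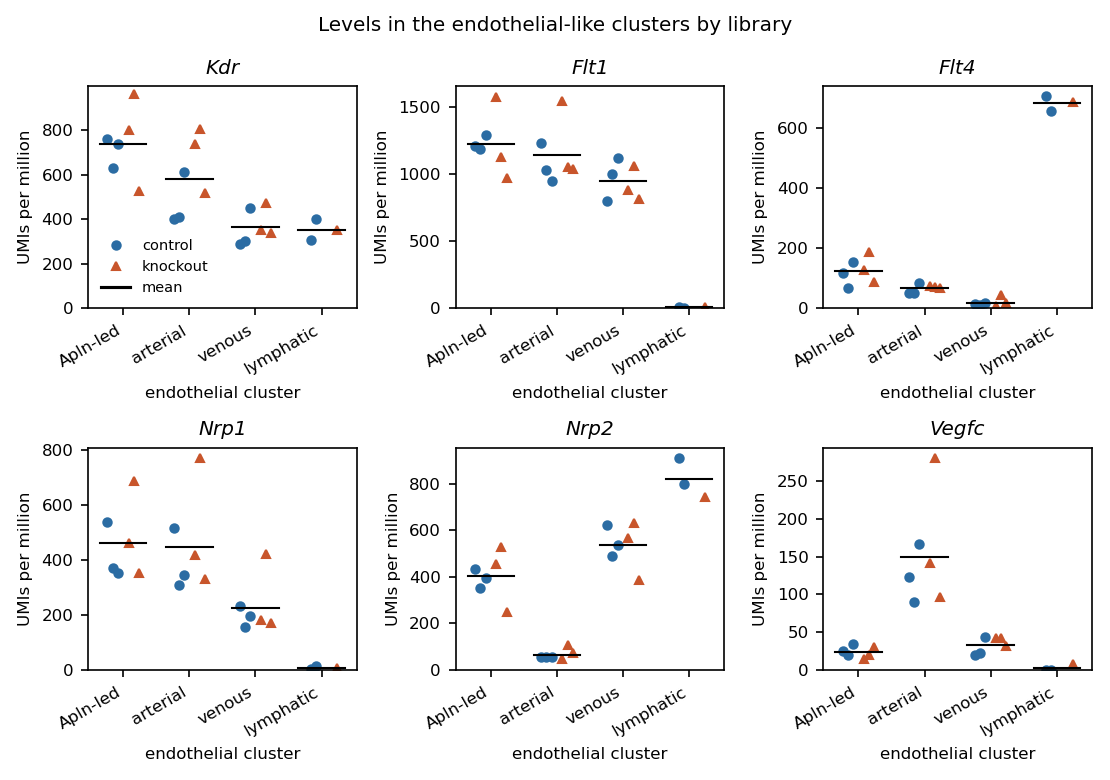
Levels in CPM (vertical axes) of the 3 receptors, both neuropilins and Vegfc in 4 endothelial clusters, with circles for controls, triangles for knockouts and bars for the mean. The lymphatic-like cluster (3 libraries) held Flt4 at 656.0 to 706.0 with Flt1 and Nrp1 near 0, and the arterial-like cluster held Vegfc with little Nrp2.

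For each member, the genes with the most similar level over the 19 classes were found by Pearson r of log2(mean CPM + 1) among 13197 genes. The points are classes that share libraries and free RNA, and the values are a description. Kdr was most like Dll4 (0.963), a Notch ligand of sprouting vessels, Nos3 (0.961), the nitric oxide synthase of endothelium, and Tie1 (0.960). Flt1 was most like Emcn (0.960), Esam (0.956) and Vsig2 (0.944), and Flt4 most like Ccm2l (0.972), Rbp7 (0.972) and Sema3g (0.960). Tie1, Emcn and Esam were among the markers that named the endothelial-like class, and Sema3g among those of the arterial-like cluster.

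The ligands had weaker or mixed companions. Pgf was most like Abcc9 (0.901), a potassium channel subunit of pericytes, Kitl (0.860) and Rasl11a (0.847). Abcc9 was among the markers of the pericyte-like class and Kitl among the listed marrow stromal markers. Vegfa was most like Myo5a (0.775), Gm5617 (0.757) and Cib2 (0.749), Vegfb like Prmt7 (0.914), Akip1 (0.898) and Mrpl13 (0.872), and Vegfc like Git1 (0.844), Llgl1 (0.837) and Zdhhc5 (0.831). Nrp1 was most like Asah2 (0.893), Mfap3 (0.893) and Sept10 (0.884). Nrp2 was most like Gm37121 (0.927), Cd109 (0.862) and Zdhhc12 (0.854). Gm37121 lies inside Nrp2 on the same strand, so its reads and those of Nrp2 are uncertain between them. Among the members themselves, r was 0.923 for Kdr and Flt4, 0.827 for Kdr and Flt1 and 0.707 for Pgf and Nrp1.

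The knockout was compared with the control label within each class and in 3 endothelial clusters, on UMIs summed per library, to see whether ligand or receptor RNA changed in the callus. Of 140 member tests in 22 fits, 0 passed an adjusted p of 0.05 by edgeR's quasi-likelihood test, and the smallest adjusted p was 0.688. Over all genes, the share called was 0% in each fit but that of B-like cells, where it was 0.0333%. DESeq2 also called 0 member tests. At an unadjusted p under 0.05, 10 member tests passed (7.14%, against 3.57% of all tests). Under alternatives the number was 10 by DESeq2, 26 without knockout 1 and 12 without knockout 3, the library that stood apart by Xist. The share of all tests was computed for the main fits only. Counts under the alternatives therefore have no background and are not read as a result about the members. The labels number the libraries of a group without stating that each came from a separate mouse, so p-values measure the spread between these libraries.

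The receptors gave small differences in endothelial-like cells. The log2 fold change of knockout against control was 0.19 (SE 0.24) for Kdr, 0.04 (SE 0.20) for Flt1, 0.08 (SE 0.37) for Flt4, 0.41 (SE 0.28) for Nrp1 and -0.09 (SE 0.24) for Nrp2. Control and knockout libraries overlapped for each of them, and the signs of Kdr, Flt1, Flt4 and Nrp2 turned when single libraries were left out. Of 13 shares of endothelial-like, chondrocyte-like or osteoblast-like cells with a UMI of a member, compared after thinning by an exact permutation test (two-sided), the p ranged from 0.3 to 1, where 3 against 3 libraries cannot go below 0.1, and the adjusted p was 1 for each.

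The cartilage and bone ligands likewise gave no call, which does not show that their levels were alike. Vegfa had a log2 fold change of -0.13 (SE 0.35) in chondrocyte-like, 0.24 (SE 0.62) in HTC-like and -0.43 (SE 0.29) in osteoblast-like cells. Pgf had 1.99 (SE 0.86) in chondrocyte-like cells, where knockout 2 was at 17.1 and the other 5 libraries at 0.732 to 2.86. The other 9 tests at an unadjusted p under 0.05 lay outside cartilage, among them Vegfa in dendritic-like cells at -1.61 (SE 0.50, 5 libraries) and Kdr in cycling stromal-like cells at 1.21 (SE 0.49).

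Vegfa in Mmp9-led stromal cells was 115.3, 136.9 and 106.2 in the controls and 86.8, 51.0 and 49.4 in the knockouts. The groups did not overlap, the log2 fold change was -0.87 (SE 0.27), and the adjusted p by edgeR was 0.976. The 5 listed marrow stromal markers summed in this class to 993.0, 4161 and 1705 in the controls and to 589.3, 657.6 and 406.8 in the knockouts, and their part in the difference was not tested. In the same class Vegfc had -1.35 (SE 0.51) and Flt1 1.99 (SE 0.65), with 2.29, 6.08 and 1.07 CPM of Flt1 in the controls and 18.1, 6.08 and 11.3 in the knockouts. The endothelial marker list there was 29.8 to 100.4 in the controls and 100.8 to 160.9 in the knockouts.

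Kdr in pericyte-like cells was 3.73, 3.09 and 1.30 in the controls and 5.65, 17.1 and 13.7 in the knockouts, from 62 UMIs in all. Its log2 fold change was 2.26 (SE 0.57), with an adjusted p of 0.951 by edgeR. The endothelial marker list in these cells was 232.6, 375.6 and 301.6 in the controls and 345.8, 326.6 and 632.0 in the knockouts. Pgf of the arterial-like cluster was 23.3, 73.1 and 39.2 in the controls and 9.25, 12.5 and 26.0 in the knockouts, with a log2 fold change of -1.59 (SE 0.48) and an adjusted p of 0.748. Here the groups overlapped.

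Nrp2 was higher by the unadjusted test in 2 myeloid classes. In monocyte-like cells it was 36.6, 29.5 and 25.5 in the controls and 83.5, 69.1 and 44.96 in the knockouts (log2 fold change 1.18, SE 0.31, adjusted p of 1.00 by edgeR). In neutrophil-like cells it was 27.1, 12.3 and 16.5 in the controls and 25.1, 64.2 and 29.3 in the knockouts (1.45, SE 0.50). The osteoclast marker list, whose cells had the most Nrp2, summed in monocyte-like cells to 81.2, 62.9 and 90.7 in the controls and 110.3, 534.3 and 216.6 in the knockouts. In neutrophil-like cells it summed to 81.4, 41.7 and 91.7 in the controls and 92.1, 590.3 and 341.8 in the knockouts. The part of osteoclast RNA in the Nrp2 levels was not tested.

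Groups of 3 control and 3 knockout libraries did not overlap in 11 of 134 pairs of a member and a class with at least 60 UMIs (8.21%), against 7.74% of all genes by the same rule. Higher in the knockouts were 7 (3.25% of all genes): Kdr in pericyte-like and cycling stromal-like cells, Nrp1 in pericyte-like, fibroblast progenitor-like and T and NK-like cells, and Nrp2 in monocyte-like and T and NK-like cells. Lower were 4 (4.48% of all genes): Vegfa in Mmp9-led stromal and pericyte-like cells, Vegfc in osteoblast-like and Pgf in osteoclast-like cells. The share is near that of all genes. By sign alone, the log2 fold change of Nrp1 was above 0 in 17 of 17 classes tested (median 0.40) and that of Vegfb in 14 of 15 (median 0.24). That of Vegfa was below 0 in 13 of 17 (median -0.28). The median of all genes lay between -0.05 and 0.04 in each class, but the scaling of the libraries keeps it near 0. It is therefore no background for such runs of signs, and their share over all genes was not computed. The classes share their 6 libraries and free RNA, so the counts of signs are not independent. Knockout 2 was the highest library for Nrp1 in 7 of 14 classes and the lowest for Vegfa in 11 of 14, and knockout 3 was the highest for Vegfb in 7 of 12.

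**Figure D5:**
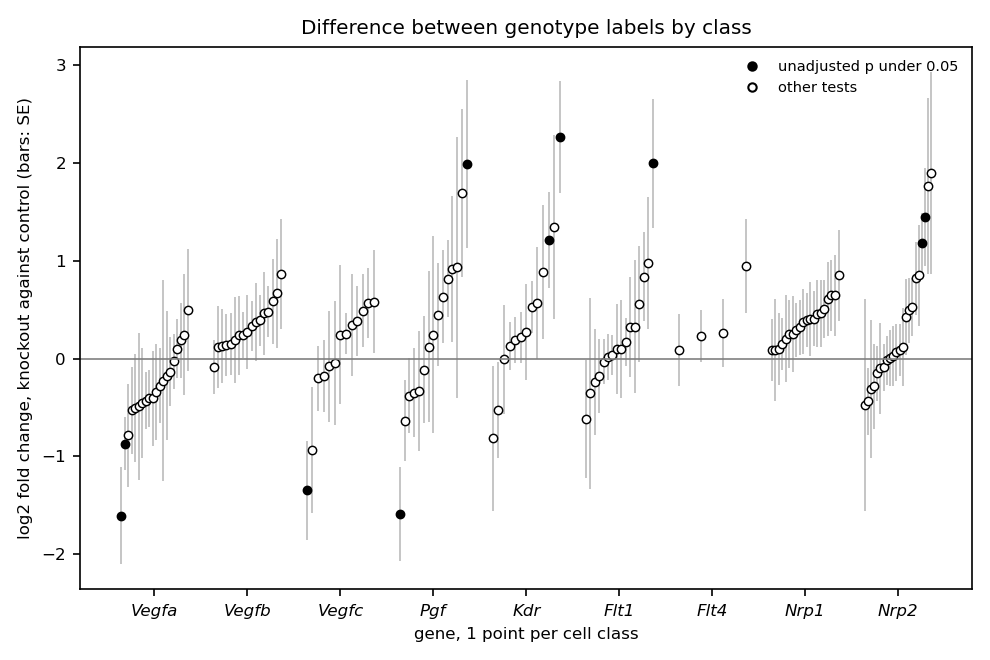
Log2 fold change of knockout against control (vertical axis, bars: SE) for each member, with 1 point per class or endothelial cluster tested. Filled points had an unadjusted p under 0.05, none passed an adjusted p of 0.05, and the points of Nrp1 all lay above 0 while most of Vegfa lay below.

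In all cells of a library summed, 0 of 20214 genes were called by edgeR (308 at an unadjusted p under 0.05) and 17 by DESeq2. Vegfa was 101.8, 51.4 and 89.7 in the controls and 119.9, 23.7 and 73.3 in the knockouts, and Kdr was 48.0, 152.2 and 60.9 in the controls and 27.9, 106.1 and 62.3 in the knockouts. In these sums fewer cells of a type and less RNA per cell cannot be told apart. Endothelial-like cells were 15.2 ± 7.39% of control and 10.5 ± 5.18% of knockout cells (exact permutation test, two-sided, p = 0.6). HTC-like cells, as named here, were 0.847 ± 1.25% and 2.47 ± 2.87% (exact permutation p = 0.5), and pericyte-like cells, the class with the most Pgf, 5.70 ± 2.103% and 1.42 ± 0.549% without overlap (exact permutation p = 0.1, the smallest p that 3 against 3 allow). The test was run on the shares of 19 classes and 4 endothelial clusters without adjustment. Every share but that of pericyte-like cells had an exact permutation p of 0.2 or more.

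Genes that respond to VEGF or carry its signal were counted in the endothelial-like class, with 0 called in either direction. Of 15 VEGF response and tip cell genes tested, 7 had a log2 fold change above 0 and 8 below, with a median of -0.05 against 0.01 for all genes. Kcne3, a potassium channel subunit of tip cells, had 1.42 (SE 0.29, adjusted p of 0.780 by edgeR) and Egr3, an early response gene induced by VEGF, -0.89 (SE 0.25). In the Apln-led cluster Kcne3 had 1.40 (SE 0.23) and Egr3 -0.97 (SE 0.26). In the arterial-like cluster, where 12 of the list were tested, Nr4a1 had -0.91 (SE 0.35) and Unc5b 0.89 (SE 0.28), and in the venous-like cluster, with 10 tested, Nr4a1 had -0.84 (SE 0.42) and Apln 0.79 (SE 0.49).

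Of 30 receptor signalling genes, 29 were tested in endothelial-like cells, 9 above and 20 below 0, with a median of -0.16 against 0.01 for all genes and 2 at an unadjusted p under 0.05. These 2 were Akt1 at 0.46 (SE 0.17) and Map2k2 at 0.55 (SE 0.20). Differences were largest for Sphk1, a lipid kinase downstream of Kdr, at -0.58 (SE 0.41) and Nfatc1, a calcium-driven transcription factor, at -0.56 (SE 0.27). In the Apln-led cluster Nfatc1 had -0.55 (SE 0.24) and Src -0.49 (SE 0.87), in the arterial-like cluster Akt1 had 0.69 (SE 0.23) and Pxn -0.57 (SE 0.28), and in the venous-like cluster Nos3 had -0.89 (SE 0.28) and Map2k2 0.76 (SE 0.25).

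Regulators and targets of the hypoxia response were read in the cartilage and bone classes, with 0 called. In chondrocyte-like cells 3 of 16 were above and 13 below 0 (median -0.17 against 0.01 for all genes), with Car9 at -0.83 (SE 0.70) and Hif1a, the oxygen-regulated transcription factor, at -0.64 (SE 0.51). In HTC-like cells 10 of 14 were above 0 (median 0.20 against 0.02), with Ankrd37 at 1.07 (SE 0.98) and Pgk1 at 0.85 (SE 0.72). In osteoblast-like cells 11 of 14 were above 0 (median 0.07 against -0.01), with Ndrg1 at -0.79 (SE 0.29) and Ldha at 0.60 (SE 0.29). Vegfa had the same sign as the median of this list in chondrocyte-like and HTC-like cells and the other sign in osteoblast-like cells, with an SE above its size in the first 2.

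Matrix and secreted partners or antagonists of the ligands, 15 of 17 listed genes being in the files, also had 0 called. Their median was -0.26 in chondrocyte-like cells (4 of 15 above 0), -0.22 in HTC-like cells (4 of 11) and -0.29 in osteoblast-like cells (4 of 13). Mmp9, a protease that releases VEGF from matrix, had the largest difference in each, 2.71 (SE 0.88), 2.60 (SE 0.82) and 1.90 (SE 0.56). Sema3c, a semaphorin ligand of neuropilins, had -0.95 (SE 0.40) in chondrocyte-like and -1.87 (SE 0.74) in osteoblast-like cells, and Thbs2 had -1.01 (SE 0.60) in HTC-like cells. Mmp9 is also a leading gene of the osteoclast-like class, and the osteoclast marker list in osteoblast-like cells was 182.9, 196.7 and 346.7 in the controls and 220.8, 529.6 and 314.8 in the knockouts. The part of osteoclast RNA in these differences was not tested.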

How the data were processed

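The members were given by name, and the cell type markers, gene lists and alternatives were chosen with earlier results of these data known. Per the labels, the authors aligned reads to GRCm38 with Cell Ranger and used Seurat. The headers of the deposited matrices give Cell Ranger 6.1.1 for control 1 and knockout 1 and 6.1.2 for the other libraries. The authors deposited filtered matrices of raw UMI counts, which were used as such. Replicate 3 of both groups listed 55357 features and the others 55450, and the 52081 shared identifiers held at least 97.77% of the UMIs of a library.

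Of 46944 barcodes, 44698 passed minimums of 500 UMIs and 200 genes and a limit of 20% on the mitochondrial share. Scrublet scores ranked the cells and the top 0.8% of a library per 1000 cells was removed as doublets, 3046 in all. Cells were clustered with scanpy 1.11.5 and leidenalg 0.10.2 at resolution 0.8, after integration with Seurat 5.3.0, on 2000 variable genes, 30 components and 20 neighbours. The 9 members were left out of the variable genes and of every marker list. A cluster was named from at least 3 of its markers in at least 25% of cells and at 2 times the median cluster, thresholds set after seeing the data, and stromal cells were clustered again. Class names were rebuilt here and may differ from those of the study.

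UMIs were summed per library and class with at least 10 cells and tested with edgeR 4.0.16 (quasi-likelihood test, filterByExpr, TMM, R 4.3.3), with Benjamini-Hochberg adjustment over all genes of a fit and a threshold of 0.05. DESeq2 1.42.0 was an alternative, as were other cell filters, doublet rates, resolutions, size factors and omitted libraries. An alternative without clusters of a median below 2000 UMIs was chosen after seeing the data. Genes named beside the members were the 3 most alike in level and, of each list, the 2 with the largest absolute log2 fold change. Shares of cells were compared by exact permutation tests over all 20 assignments of the 6 libraries, computed in Python 3.11.15 with numpy 2.4.6. The edgeR test was also run on simulated counts of endothelial-like, chondrocyte-like and osteoblast-like cells, where it missed most changes with a log2 size of 1. In chondrocyte-like cells it also missed most changes with a log2 size of 2. A result of 0 calls therefore does not show that levels were alike. Positions came from GENCODE M21 and start regions from RefSeq on GRCm38.p6, which held all 9 members (the upstream entry was used for Vegfa and Pgf, with 2 entries each).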

Additional observations from a re-analysis of the deposited data

How the results depend on the processing

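The number of member tests past an adjusted p of 0.05 stayed at 0 under every alternative except 1, no filter on low counts, where Pgf in the arterial-like cluster passed with a log2 fold change of -1.62 and an adjusted p of 0.0216 by edgeR. The main fit of this cluster called 0 of 6885 genes. Without the filter, calls summed over the classes, endothelial clusters left out, rose from 1 to 1235. The share of all genes called in the unfiltered arterial-like fit is not given, so the Pgf call has no background. The number of member tests called was 0 to 0 when each library was left out in turn. Level values were recomputed under other cell filters, doublet rates, resolutions and integration and with libraries left out, 117 in all. Each lay within 1 SD of the reported mean, with the same leading class. With libraries left out, the first was fixed in advance, since the mean of the remaining libraries cannot move by 1 SD. The number of genes called, summed over classes, was 1 and became 4 with 1.6% of a library per 1000 cells removed as doublets, 32 by DESeq2, 0 with cells limited to 1000 genes or more and 10% mitochondrial UMIs or less, 1235 with no filter on low counts, 3 with no integration, 75 with no replicate 3 of both groups, and 1 to 90 with single libraries left out, the highest without control 2. In all cells summed, DESeq2 called 17 genes against 0. The cause of these changes was not tested. Member tests at an unadjusted p under 0.05 numbered 10, 19 with no filter on low counts, and 7 to 26 with single libraries left out. The share of all tests was not computed under these alternatives, so a rise in all tests cannot be told apart from 1 in the members.

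A fit with the replicate number as a block called 81 genes and 0 members. Deviations of same-numbered libraries over all cells correlated at 0.45, 0.26 and -0.04 across genes, and control 3 correlated best with knockout 2, so the numbers were not taken as pairs. Libraries of one number did share processing, since replicate 1 of both groups had its own Cell Ranger version and replicate 3 its own feature list, and the first pair had the highest correlation. Batch effects by number were not tested apart from this block.

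Of 411 recomputed log2 fold changes of 24 member results, 26 had the other sign. With 1.6% removed as doublets, Vegfa in chondrocyte-like cells was 0.04. With no replicate 3 of both groups, Vegfb was -0.23 in chondrocyte-like and -0.07 in osteoblast-like cells, Vegfa -0.48 in HTC-like cells and Nrp2 0.08 in endothelial-like cells. At resolution 0.4 Vegfc in chondrocyte-like cells was 0.30, and at resolution 1.2 Pgf in osteoblast-like cells was 0.28. With no integration, Vegfa in HTC-like cells was -0.06 and Pgf in osteoblast-like cells 0.69. With single libraries left out, the ranges that crossed 0 were -0.49 to 0.14 for Vegfa and -0.21 to 0.25 for Vegfc in chondrocyte-like cells, -0.27 to 1.15 for Vegfa and -0.64 to 1.69 for Pgf in HTC-like cells, -0.03 to 0.31 for Vegfb and -0.88 to 0.07 for Pgf in osteoblast-like cells, and -0.02 to 0.33 for Kdr, -0.08 to 0.12 for Flt1, -0.26 to 0.50 for Flt4 and -0.33 to 0.07 for Nrp2 in endothelial-like cells.

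Levels near those of neutrophil-like cells were not told apart from free RNA, and 3 libraries per group limit the precision of every difference. The comparison is meant for genes that neutrophil-like cells should lack. Their clusters held Vegfa at means of 34.6 to 70.6 CPM, above the 14.3 of endothelial-like cells. The part of free RNA in these Vegfa levels was not tested.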

Other observations

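Vegfd, the other ligand of Flt4, was highest in fibroblast progenitor-like cells, the class led by Dpt, Clec3b and Mfap5. Its level there was 38.9, 32.9 and 21.8 CPM in the controls and 81.7, 34.1 and 24.1 in the knockouts, with knockout 1 the highest and the groups overlapping. Vegfc, by contrast, had 10.7 ± 2.14 CPM in these cells, so that both ligands of Flt4 were found there, while the arterial-like cluster held the most Vegfc.

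Ligands were also unevenly placed inside the endothelium. Vegfa was 32.3 ± 14.5 CPM in the arterial-like cluster, above the Apln-led cluster (11.4 ± 5.51) and the venous-like cluster (13.2 ± 6.28) in 6 of 6 libraries each. Lymphatic-like cells had 44.5, 38.2 and 57.2 CPM of Vegfa from 37 UMIs. Vegfb in the same cells was 31.8, 28.7 and 78.7 CPM from 37 UMIs, against 13.2 ± 2.80 in the Apln-led cluster. Among 10 classes with enough Kdr UMIs, knockout 2 was the highest library in 8, and among 11 classes with enough Pgf UMIs, knockout 1 was the lowest in 6.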
